A study of Drosophila melanogaster with 8 samples.

Results

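Neuropeptides are short signalling peptides that neurons and endocrine cells cut from longer precursor proteins, pack into dense core vesicles and release, and most of them act on G protein-coupled receptors of other cells. In insects they set feeding, water balance, gut and heart contraction, sleep and the activity of the endocrine glands, and several of them act on the insulin-producing cells of the brain, which influence whether a female fly matures her eggs or enters reproductive dormancy. The list examined here held 50 genes of Drosophila melanogaster, 27 that encode peptide precursors and 23 that encode receptors, chosen by gene symbol. Insulin-like peptides, adipokinetic hormone and pigment-dispersing factor were not on it. On the arrays 38 of the 50 genes were measured, out of 11982 genes with a probe set of their own. These were 24 peptide genes and 14 receptor genes.

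The question was which head transcripts differ with day length. Expression was compared in the heads of Canton_S females, a laboratory wild-type strain, kept for 12 days after emergence at 12.5 °C under either long days (16 h light and 8 h dark) or short days (10 h light and 14 h dark). The flies were collected 4 h after lights-on, and total head RNA of 4 long day and 4 short day samples was hybridised to 1 array each. The methods of the study describe a still shorter short day, and the day lengths of the labels are used here. The labels number the samples without saying whether each was a separate vial of flies, and the tests therefore rest on a spread that may be technical only. No other genotype, tissue or time of day was analysed here.

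Values are log2 expression per probe set, on a scale whose lowest deposited value was 2.15. Probe sets differ in sensitivity, so each gene was compared only with itself between samples. Of the 38 measured members 28 had a mean of 4 or more over the 8 arrays, 19 peptide and 9 receptor genes. Array medians over probe sets of mean 4 or more ran from 8.44 to 8.52, and pairs of arrays correlated with r of 0.983 to 0.996. The head neuron markers were present, with a mean level of the list between 10.21 and 10.70 on the log2 scale. Short day replicate 3 held thoracic flight muscle transcripts, with fln at 11.71 there and at most 2.69 on every other array, and Antp, expressed in the thoracic nerve cord, was also highest there (6.32, against 5.43 to 5.89 on the others).

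In short day heads 3 members rose and none fell at an unadjusted p under 0.01, the threshold of the study. These were NPFR, the receptor of neuropeptide F, by 1.38-fold, FMRFa, the precursor of FMRFamide-related peptides, by 1.35-fold, and Dh31, a calcitonin-like diuretic hormone, by 1.21-fold. Among all 11982 genes 1.79% were called higher and 1.69% lower, and among the 7348 genes of mean 4 or more 2.91% were called higher. No member passed 0.05 after Benjamini-Hochberg adjustment over all probe sets in limma (adjusted p = 0.290 for NPFR, adjusted p = 0.307 for FMRFa and adjusted p = 0.321 for Dh31), and none of the 11982 genes did. Another 4 peptide genes were higher at an unadjusted p under 0.05, namely Proc, Ms, Mip and SIFa, and 1 was lower, Nplp2. That makes 7 members higher and 1 lower by this looser limit, which 6.04% of all genes passed upwards and 5.07% downwards. All of these members had a mean of 4 or more. Among the 7348 genes at that level 9.69% passed upwards, and 596 passed downwards.

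Most peptide genes lay on the higher side in short days on the deposited scale, but the median member difference turned to -0.04, and that of all genes to -0.19, when arrays were scaled to general neuronal markers (described further on). The short day mean exceeded the long day mean by over 0.1 on the log2 scale in 21 of 38 members, 15 of 24 peptide genes and 6 of 14 receptor genes, and was lower by over 0.1 in 2. In the genes as a whole these shares were 19.3% and 14.1%, and among genes of mean 4 or more 29.0% and 21.4%. The median log2 difference was 0.15 over the 38 members and 0.00 over all genes, and 0.17 over the peptide genes and 0.07 over the receptor genes. In 8 members all 4 short day values lay above all 4 long day values, which was the case in 3.87% of all genes and in 6.18% of those of mean 4 or more. In 1 member, Nplp2, they all lay below, as in 3.47% of all genes. In bulk heads fewer cells of a type and less RNA per cell cannot be told apart.

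**Figure D1:**
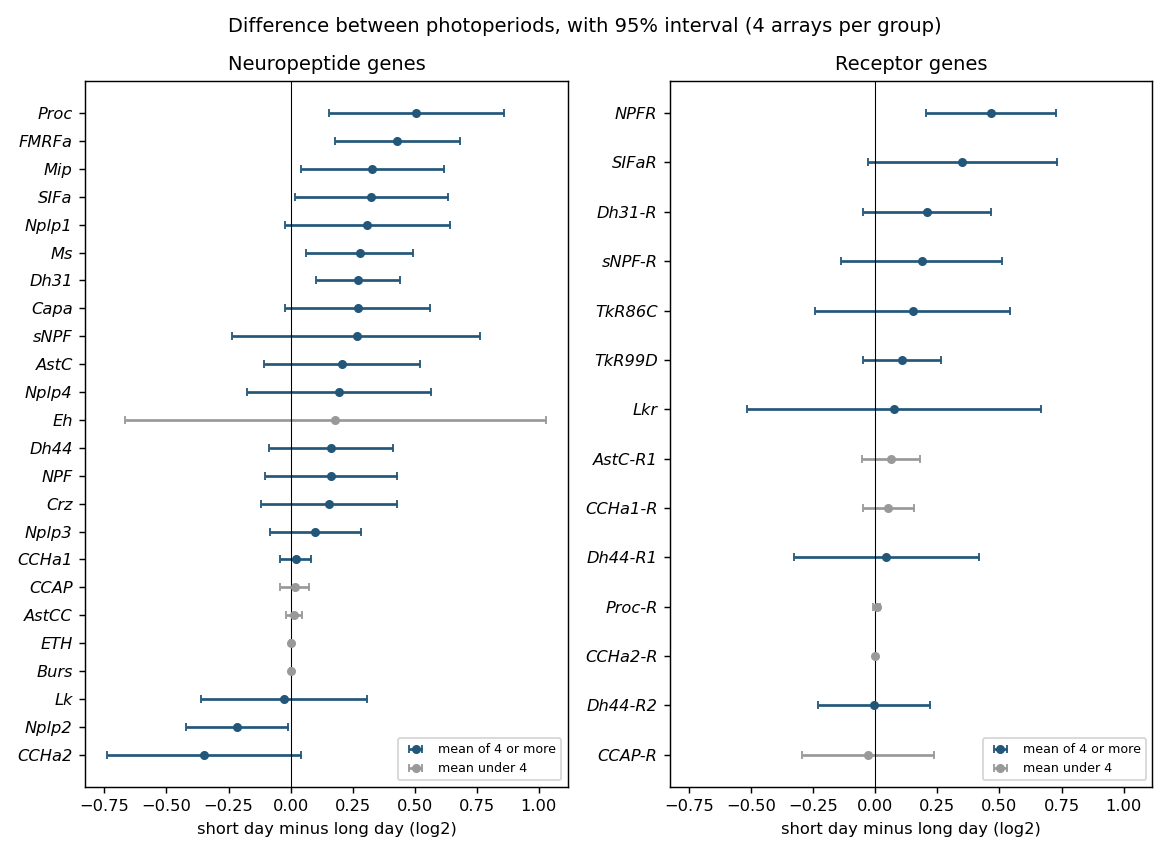
Difference between short and long days (log2, horizontal axis) of the 24 measured peptide genes (left) and 14 receptor genes (right), with 95% limma intervals over 4 arrays per group. Most points lie to the right of 0, and the intervals of Proc, FMRFa, Mip, SIFa, Ms, Dh31 and NPFR do not reach it, while Nplp2 lies to the left with its interval. Grey points are genes with a mean under 4.

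FMRFa (probe set 1631246_at) encodes a precursor that is cut into several peptides ending in the amidated FMRF motif, which act on muscle and are made by neurosecretory cells. Its log2 values were 6.80, 6.55, 6.69 and 6.77 in long day replicates 1 to 4 and 6.89, 7.33, 7.10 and 7.20 in short day replicates 1 to 4. The groups did not overlap, although short day replicate 1 lay close to long day replicate 1. The mean rose from 6.70 ± 0.11 to 7.13 ± 0.18 (SD, n = 4 each), a log2 difference of 0.43 (95% interval 0.18 to 0.68, limma adjusted p = 0.307). Its receptor, FMRFaR, had no probe set of its own and was not measured. With 1 array left out at a time, the log2 difference lay between 0.36 and 0.51. It was still called without long day replicate 1 or short day replicate 1, and the call was lost without long day replicate 2, 3 or 4 or short day replicate 2, 3 or 4.

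Dh31 (1630467_a_at) is known as a diuretic hormone and as a peptide of clock neurons that affects sleep. It measured 10.17, 9.91, 10.08 and 10.03 in long days and 10.29, 10.40, 10.38 and 10.20 in short days. The lowest short day value, in replicate 4, was just above the highest long day value, in replicate 1. The mean rose from 10.05 ± 0.11 to 10.32 ± 0.09, a log2 difference of 0.27 (0.10 to 0.44, limma adjusted p = 0.321). Its receptor Dh31-R was at 7.65, 7.58, 7.79 and 7.59 in long days and at 7.84, 7.92, 7.61 and 8.08 in short days. The groups overlapped through short day replicate 3, and the difference of 0.21 (-0.05 to 0.47) was not called (limma adjusted p = 0.688). With 1 array left out it lay between 0.14 (without short day replicate 4) and 0.29 (without short day replicate 3), and was never called. The second probe set of Dh31-R differed by 0.13 (limma adjusted p = 0.823). Leaving out 1 array at a time gave Dh31 log2 differences between 0.23 and 0.31, and the call was lost without long day replicate 2, 3 or 4 or short day replicate 1, 2 or 3.

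NPFR (1628982_at) is the receptor of neuropeptide F, the fly relative of vertebrate neuropeptide Y, known for its part in feeding and reward. It measured 4.97, 5.15, 5.24 and 5.12 in long days and 5.61, 5.85, 5.45 and 5.44 in short days, which is in the lower part of the scale. Every short day value was above every long day value. The mean rose from 5.12 ± 0.11 to 5.59 ± 0.19, a log2 difference of 0.47 (0.20 to 0.73, limma adjusted p = 0.290). Its ligand NPF was at 7.61, 7.76, 7.71 and 7.99 in long days and at 7.83, 8.15, 7.78 and 7.95 in short days. These ranges overlapped, and the difference of 0.16 (-0.10 to 0.43) was not called (limma adjusted p = 0.830). With 1 array left out it lay between 0.089 (without short day replicate 2) and 0.235 (without long day replicate 4). For NPFR the differences with 1 array left out lay between 0.38 and 0.52, and the call was lost without long day replicate 1, 2 or 4 or short day replicate 1.

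**Figure D2:**
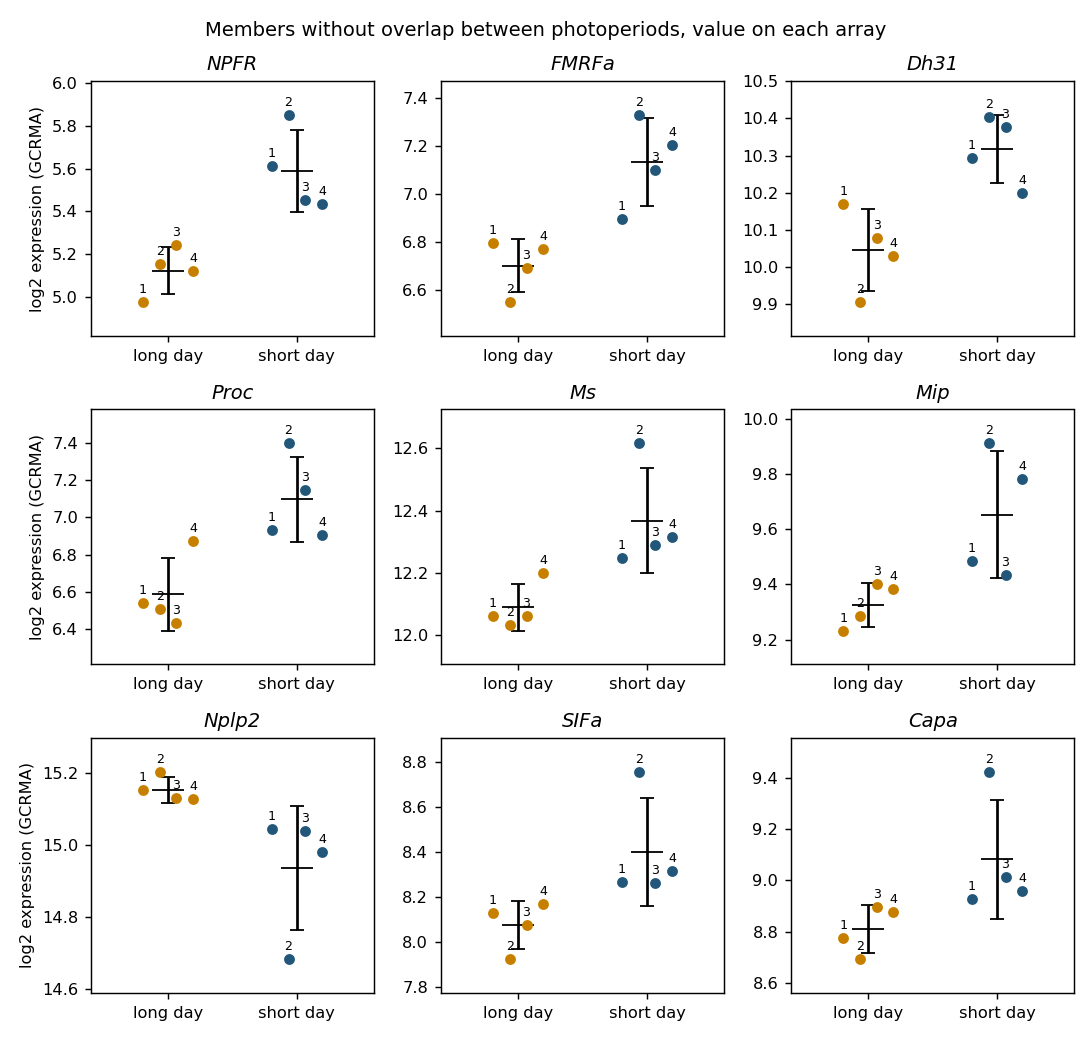
Log2 expression on each array (vertical axes, 1 panel per gene, each with its own range) of the 9 members whose 4 long day (orange) and 4 short day (blue) values do not overlap, with replicate numbers, mean (horizontal line) and SD (bars). In 8 panels the short day points are above, and in that of Nplp2 below, and short day replicate 2 is the farthest point from the long day group in 9 of 9 panels.

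Proc encodes proctolin, a short peptide that stimulates muscle contraction, and measured 6.54, 6.51, 6.43 and 6.87 in long days and 6.93, 7.40, 7.15 and 6.90 in short days. Its groups were separated only by the narrow gap between long day replicate 4 and short day replicate 4. The log2 difference of 0.51 was the widest of all members but did not pass 0.01 (0.15 to 0.86, limma adjusted p = 0.389). The proctolin receptor gene Proc-R was at the lowest values, between 2.15 and 2.17, on every array. Ms encodes myosuppressin, which slows the contraction of gut and heart. It was at 12.06, 12.03, 12.06 and 12.20 in long days and at 12.25, 12.62, 12.29 and 12.31 in short days, a difference of 0.28 (0.06 to 0.49, limma adjusted p = 0.431). All short day values lay above, that of replicate 2 by far the most. Without short day replicate 2 the difference of Ms was smaller, 0.20, and passed 0.01. The myosuppressin receptors MsR1 and MsR2 were not measured.

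Mip encodes the myoinhibiting peptides, also named allatostatin B, which activate the sex peptide receptor. It measured 9.23, 9.28, 9.40 and 9.38 in long days and 9.48, 9.91, 9.43 and 9.78 in short days. Short day replicates 2 and 4 stood well above the long day range and replicates 1 and 3 just above it, and the difference was 0.33 (0.04 to 0.62, limma adjusted p = 0.495). The sex peptide receptor gene SPR, from the list of other receptors, differed by 0.21 (0.00 to 0.43, limma adjusted p = 0.564).

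SIFa, made by a small group of cells in the midline of the brain whose processes reach most brain regions, was at 8.13, 7.92, 8.07 and 8.17 in long days and at 8.27, 8.76, 8.26 and 8.31 in short days. Short day replicate 2 was far above the other 3 short day samples, which were close to the long day range. The difference was 0.33 (0.02 to 0.64, limma adjusted p = 0.536), and without short day replicate 2 it was 0.21. Its receptor SIFaR measured 7.29, 6.75, 7.14 and 7.08 in long days and 7.20, 7.49, 7.71 and 7.26 in short days. The ranges overlapped through long day replicate 1, and the difference of 0.35 (-0.03 to 0.73) was not called (limma adjusted p = 0.608). The second probe set of SIFaR was at the lowest value.

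Capa, whose peptides act on the excretory tubules, was at 8.78, 8.69, 8.89 and 8.88 in long days and at 8.93, 9.42, 9.01 and 8.96 in short days. Its groups did not overlap, but the gap was narrow and the difference of 0.27 (-0.02 to 0.56) missed both limits (limma adjusted p = 0.601). Without short day replicate 2 it was 0.16. Its receptor CapaR was not measured. Nplp1, a precursor whose peptides include IPNamide of clock neurons, was at 11.21, 11.04, 11.28 and 11.42 in long days and at 11.46, 11.79, 11.26 and 11.68 in short days. Short day replicate 3 lay within the long day range, and the difference of 0.31 (-0.02 to 0.64) was not called (limma adjusted p = 0.601). AstC encodes allatostatin C, a peptide that in moths inhibits the synthesis of juvenile hormone. It was at 12.20, 12.04, 12.38 and 12.44 in long days and at 12.39, 12.77, 12.36 and 12.37 in short days, so that only short day replicate 2 lay outside the long day range (difference 0.21, -0.11 to 0.52, limma adjusted p = 0.800). The difference of AstC was 0.11 without that sample, 0.13 without long day replicate 2 and, at the other end, 0.265 without long day replicate 4.

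The members whose means were lower by over 0.1 in short days were Nplp2 and CCHa2. Nplp2 was first found as a neuropeptide-like precursor and is also described as an exchangeable apolipoprotein of the haemolymph. Close to the top of the scale, it was at 15.15, 15.20, 15.13 and 15.13 in long days and at 15.04, 14.68, 15.04 and 14.98 in short days. The long day values were tightly grouped and all above the short day values, of which replicate 2 was the lowest. The difference was -0.22 (-0.42 to -0.01, limma adjusted p = 0.534), and without short day replicate 2 it was -0.13 and passed 0.01. CCHa2, singled out after its values were seen, encodes a peptide that fat body and gut cells release and that acts on insulin-producing cells. It was at 11.31, 11.49, 11.71 and 11.67 in long days and at 11.20, 10.81, 11.38 and 11.41 in short days. The ranges overlapped and the difference of -0.35 (-0.74 to 0.04) was not called (limma adjusted p = 0.627). Without short day replicate 2, the lowest, it was -0.22. The receptor gene CCHa2-R was at 2.15 on every array.

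Most genes on the fat body list, chosen with earlier results of these data known, were lower in the same short day samples. Of 10 measured fat body markers 8 were called lower and none higher, with a median log2 difference of -0.63. Those of smallest p were the yolk protein gene Yp2 (short over long day ratio 0.626), the adipokinetic hormone receptor gene AkhR (0.672), fit, which encodes a satiety peptide (0.314), and the storage protein gene Lsp2 (0.665). Not called were apolpp and Fbp1. The groups of apolpp overlapped, with a log2 difference of -0.06 (-0.18 to 0.06). Fbp1 was at 2.22 on every array except short day replicate 3 (6.26). Relative to each gene's own mean, the markers of mean 4 or more averaged between 0.28 and 0.46 in long days and between -0.64 and -0.19 in short days. Short day replicate 2, in which Nplp2 and CCHa2 were lowest, had the lowest fat body average. The part of the fat body in the values of Nplp2 and CCHa2 was not tested.

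Among the remaining peptides no difference was called. The brain hormones Dh44, a diuretic hormone related to corticotropin-releasing factor, and Crz, corazonin, differed by 0.16 (-0.09 to 0.41) and 0.15 (-0.12 to 0.43). The precursor of short neuropeptide F, sNPF, which promotes feeding and acts on insulin-producing cells, spread from 9.87 to 10.86 in long days and from 10.54 to 10.79 in short days, so its difference of 0.27 had an interval from -0.23 to 0.77. Lk, leucokinin, which regulates fluid secretion, ranged from 5.01 to 5.67 in long days and from 5.25 to 5.45 in short days, with a difference of -0.03 (-0.36 to 0.31). CCHa1 lay between 4.70 and 4.81 throughout. It had the same value, 4.706, in long day replicates 2, 3 and 4 and short day replicates 2 and 4, and may hold no signal above background. Of the neuropeptide-like precursors, Nplp3 was at 14.38, 14.28, 14.06 and 14.37 in long days and at 14.42, 14.41, 14.31 and 14.36 in short days. Its difference of 0.10 (-0.08 to 0.28) was 0.029 without long day replicate 3 and 0.136 without long day replicate 1. Nplp4 differed by 0.20 (-0.17 to 0.56). Each of these intervals includes differences in either direction.

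A group of peptides was at or near the lowest values in these heads. ETH, the ecdysis triggering hormone of tracheal endocrine cells, and Burs, a subunit of the cuticle-hardening hormone bursicon, were at 2.15 on every array. AstCC was at 2.15 to 2.21 and CCAP, crustacean cardioactive peptide, at 2.16 to 2.26. Eh, eclosion hormone, was between 2.23 and 3.69 and highest in short day replicate 2. None of these 5 was called, and values this low carry little information on a difference. Tk, AstA and Hug could not be measured, since no probe set was annotated to them alone.

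Of the receptors, NPFR alone was called. Dh44-R1 and Dh44-R2, the receptors of Dh44, differed by 0.04 (-0.33 to 0.42) and -0.01 (-0.23 to 0.22). Dh44-R1 was at 6.82, 6.79, 6.89 and 6.86 in long days and at 6.63, 7.33, 6.71 and 6.86 in short days, and it was lower by 0.11 without short day replicate 2, so no direction can be given for it. Dh44-R2 was at 7.22, 7.49, 7.42 and 7.32 in long days and at 7.40, 7.39, 7.14 and 7.50 in short days, with full overlap. The short neuropeptide F receptor sNPF-R measured 9.14, 8.75, 9.11 and 9.21 in long days and 9.32, 9.41, 8.98 and 9.23 in short days, a difference of 0.19 (-0.14 to 0.51, limma adjusted p = 0.830) that was 0.085 without long day replicate 2. The tachykinin receptors TkR99D and TkR86C differed by 0.11 (-0.05 to 0.27) and 0.15 (-0.24 to 0.54), and the leucokinin receptor Lkr by 0.08 (-0.52 to 0.67), with long day values as far apart as 5.62 and 6.64. CCAP-R, with a mean of 3.98, and the dim AstC-R1 and CCHa1-R were not called. FMRFaR, AstA-R1, AstA-R2, AstC-R2, CrzR, CapaR, MsR1, MsR2 and ETHR were not measured.

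The levels of the peptide genes followed the sample as well as the day length. Averaged over the 19 peptide genes of mean 4 or more, the deviation from each gene's own mean was -0.13, -0.16, -0.07 and 0.01 in long day replicates 1 to 4 and 0.01, 0.24, 0.04 and 0.07 in short day replicates 1 to 4. Long day replicate 4 thus lay level with short day replicate 1, and short day replicate 2 stood above the rest. In 13 of the 19 peptide genes short day replicate 2 was the highest of the 8 arrays, and in 8 of the 19 long day replicate 2 was the lowest. Without short day replicate 2 the median difference over the 38 members was 0.07 in place of 0.15, and the members called were Ms, NPFR and Nplp2. The average of the 9 receptor genes was between -0.16 and -0.02 in long days and between -0.05 and 0.22 in short days, and overlapped.

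General markers of neurons moved with the peptide genes on average, but not evenly. Of 13 measured neuronal markers 3 were called higher and none lower, Shab, Snap25 and unc-13, by 1.25-fold, 1.20-fold and 1.18-fold. The median log2 difference of the list was 0.21, and the markers not called ran from 0.01 (futsch) and 0.03 (nSyb) to 0.36 (cac). Per array the neuronal average was -0.03, -0.28, -0.09 and 0.02 in long days and 0.08, 0.22, -0.05 and 0.14 in short days, with long day replicate 2 lowest and short day replicate 2 highest, as for the peptides. Muscle transcripts were higher in the same samples. Of 9 measured genes on a list named for flight muscle and thorax 4 were called higher and none lower, with a median log2 difference of 0.49. These were Mlc2, Prm, bt and Tm2, by 1.40-fold, 1.44-fold, 1.38-fold and 1.39-fold. All 4 were at 11.96 or more on every array, so in these heads they were not particular to flight muscle or thorax. In 5 of the 9 all short day values lay above all long day values. Mlc2, Prm and Tm2 were highest in short day replicate 2, and bt in short day replicate 3 (12.89, against 12.85 in short day replicate 2). In contrast, fln and TpnC4 of this list were high only in short day replicate 3 (11.71 and 10.36) and at most 2.69 on every other array. Act88F was at 13.10 there and at 7.84 to 8.93 on the others. The part of muscle content in the values of the peptide genes was not tested. Of 10 glial markers none was called, and their median difference was -0.10. When every array was shifted to an equal neuronal average, a scaling chosen after the data were seen, the median of the 38 members turned to -0.04 and that of all genes to -0.19. On that scale the difference was 0.28 for NPFR, 0.32 for Proc, 0.24 for FMRFa and 0.08 for Dh31, none of them called, and the members called were CCHa2 (-0.54, limma adjusted p = 0.0858) and Nplp2 (-0.41, adjusted p = 0.116), both lower. That scaling called 8.51% of all genes. The part of neuronal RNA content in the differences of the peptide genes was not tested.

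**Figure D3:**
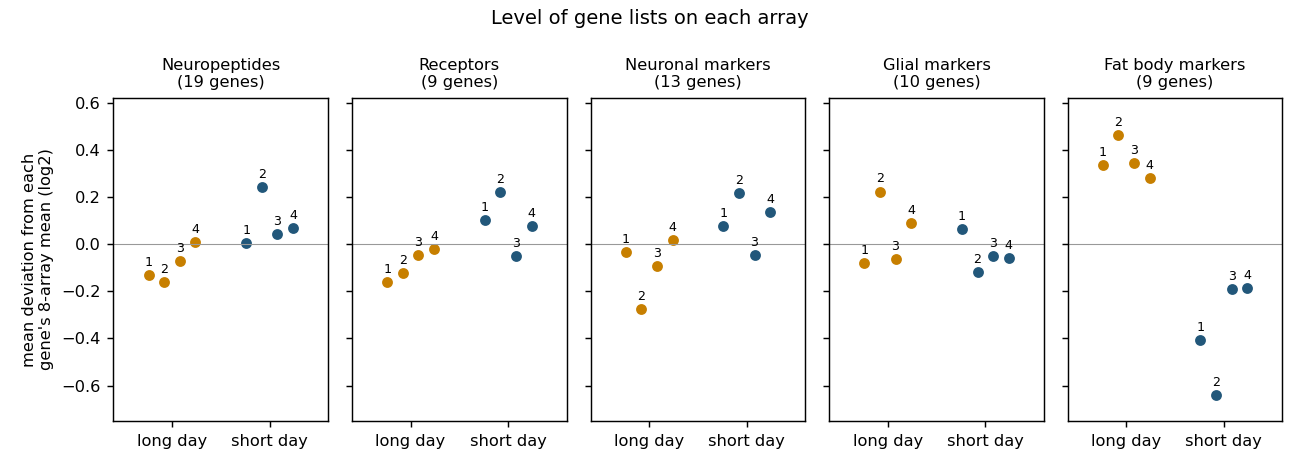
Mean deviation from each gene's 8-array mean (log2, vertical axis) of the 19 peptide genes, 9 receptor genes, 13 neuronal, 10 glial and 9 fat body markers of mean 4 or more, 1 numbered point per array, long days in orange and short days in blue. Short day replicate 2 is highest for peptides, receptors and neuronal markers and lowest for fat body markers, and only the fat body points of the 2 day lengths do not overlap.

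**Figure D4:**
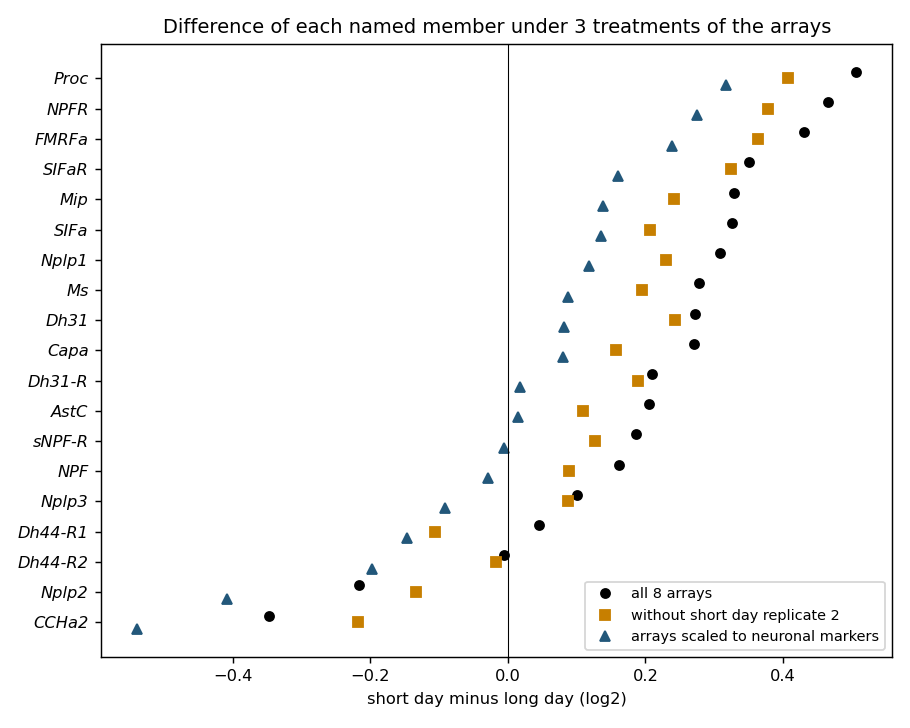
Short day minus long day difference (log2, horizontal axis) of the 18 members given in full by the rule and of CCHa2, with all 8 arrays (black circles), without short day replicate 2 (orange squares) and with arrays scaled to the neuronal markers (blue triangles). Proc, NPFR and FMRFa keep the widest positive values in each, between 0.24 and 0.51, and Dh31 comes down from 0.27 to 0.08 on the neuronal scale.

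Of 45 measured genes in 4 lists of the surrounding pathway 1 was called (2.22%, against 3.48% of all genes). Among 8 other measured neuropeptide genes none was, and spab and ITP, the latter an ion transport peptide that retains water, differed by 0.21 (-0.01 to 0.43) and -0.00 (-0.41 to 0.40). None of 8 other peptide receptors was called. Of 15 measured genes of peptide processing and release none was called either, with a median difference of 0.12, and 2 were higher at an unadjusted p under 0.05. These were Pal2, an enzyme that completes the amidation of peptides, by 0.33 (limma adjusted p = 0.551), and Cadps, which primes dense core vesicles for release, by 0.23 (limma adjusted p = 0.504). The peptidergic transcription factor gene dimm was at the lowest values. Among 14 genes of G protein signalling 1 rose, Galphao, the alpha subunit of the neuronal Go protein, from 11.84 ± 0.04 to 12.10 ± 0.05 or 1.20-fold (limma adjusted p = 0.125), and none fell. Its probe set is of a kind that can match transcripts of more than 1 gene. Over the 4 lists 21 of the 45 genes were higher by over 0.1 in short days and 2 lower (46.7% and 4.44%, against 19.3% and 14.1% of all genes). The lean upwards was thus not particular to the members, of which 55.3% were higher by over 0.1. In 3 of the 14 G protein signalling genes all short day values lay above all long day values (21.4%, against 3.87% of all genes).

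Without short day replicate 3, the sample with flight muscle transcripts, the log2 differences of FMRFa, Dh31 and NPFR were 0.44, 0.25 and 0.51, and of these only NPFR passed 0.01. Of 8 measured gut markers none was called and 7 were at or near the lowest values, up to 2.45 on any array, while Mal-A1 was highest in short day replicate 3 (6.13, against 4.55 to 5.28 on the others). Among members that gut endocrine cells also make, the nearly constant CCHa1 was highest in that sample (4.81, against 4.70 to 4.72 on the others). So small a step carries little information, and Dh31, AstC, Mip and NPF were highest in short day replicate 2. CCHa2, which gut cells also release, went the other way, highest in long day replicate 3 (11.71) and lowest in short day replicate 2 (10.81). The part of gut tissue in these values was not tested.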

How the data were processed

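The authors extracted total RNA from female heads with Trizol, labelled it as biotin-cRNA, hybridised it to Affymetrix Drosophila Genome 2.0 arrays and the deposited values are log2 expression, 1 per probe set and array. The processing notes of the submitters name GCRMA, which corrects background by probe sequence and normalizes by quantiles, so that a change in total mRNA is not visible. Of GCRMA, the version and settings are not given in the sources used here.

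Of 18952 probe sets 183 controls were set aside, and the other 18769 were fitted (lmFit, then eBayes, two-sided, no block; limma 3.58.1, R 4.3.3), short day minus long day. Called means an unadjusted p under 0.01, and Benjamini-Hochberg adjustment ran over all probe sets. Genes came from the platform annotation, with the probe set of highest mean over the 8 arrays per gene. A listed alternate name was matched through RefSeq synonyms (IA-2). Only the limma fit was tried on simulated arrays, with independent noise and no shift shared by the genes of an array. No batch was examined, as array scan dates are not among the files used, and the 4 arrays per group limit the precision. No sequences are shown.

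The members and lists were chosen with earlier results of these data known. Values on each array are given for members with an unadjusted p under 0.05, members without overlap, the 5 peptide and 5 receptor genes of highest mean, and partners of called members. CCHa2 was added after its values were seen. Of pathway and marker lists up to 4 genes with p under 0.01 are named, and others as examples chosen after their values were seen. Alternative fits used a replicate block, a minimum mean of 4 or of 6, a second quantile normalization, median centring, trend and robust variance, array weights, no moderation, a floor of 3, the mean of all probe sets of a gene and each array left out. Leaving out short day replicates 2 and 3 together and scaling to the neuronal markers were added after the data were seen.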

Additional observations from a re-analysis of the deposited data

Results flagged for a closer look

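Among the 28 members of mean 4 or more, the 4 values of each photoperiod were searched for an array far from the other 3, in 56 groups of values, of which chance alone would mark about 1 in 20. There were 5 such values, and 3 of them came from short day replicate 2. In that sample Dh44 was at 10.26 (the other short day samples at 9.85 to 9.91), AstC at 12.77 (12.36 to 12.39) and SIFa at 8.76 (8.26 to 8.31). CCHa1 was at 4.81 in short day replicate 3 (4.70 to 4.71 in the others) and at 4.72 in long day replicate 1 (4.71 in the others), differences of little size. The same short day replicate 2 had the highest neuronal and the lowest fat body averages, and the part of tissue content in these values was not tested.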

How the results depend on the processing

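The number of called members, 3, depended on the processing. It was 0 with a replicate block, 0 with trend and robust variance, 5 after median centring (Ms and Proc in addition), 1 without short day replicates 2 and 3 (Nplp2), and between 0 and 3 when single arrays were left out. With a similar count the members changed: Proc was also called with the filters at 4 (4 calls) and 6 and with second quantile normalization, where Dh31 was not, NPFR was left out by the filter at 6, and FMRFa was not called with array weights. The count was 0 without long day replicate 2, and 1 without long day replicate 3 or 4 or short day replicate 1 or 3. Over all genes the calls numbered 417, and 238 with the replicate block, 144 with trend and robust variance, 1020 after scaling to the neuronal markers, and 274 to 470 with single arrays left out. The number that passed 0.05 after adjustment in limma was 0 of 11982 genes in the main fit. It was 80 of 7348 with the filter at 4 and 118 of 6468 with that at 6. In these filtered fits fewer probe sets were adjusted for, and the variances were moderated without the dim ones. It was 17 after median centring, 5 with the mean of all probe sets and 255 after scaling to the neuronal markers. No member passed in any of these fits. The median member difference ranged from 0.072 to 0.173 with single arrays left out and was -0.039 after scaling to the neuronal markers, by which the median of all genes moved to -0.19.

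The labels do not say whether equal replicate numbers pair the samples. The correlations of same-numbered deviations ran from -0.23 to 0.165 and 2 of 8 samples correlated best with their own number. Such correlations cannot show how the samples were collected. With the replicate block FMRFa, Dh31 and NPFR kept their differences, and none of them passed 0.01.

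Among the 19 members whose values are given on each array, directions turned for 5. The other measured members were not followed singly, and after scaling to the neuronal markers the median of all 38 was itself negative (-0.039). Dh44-R1 was at -0.074 with array weights, between -0.106 (without short day replicate 2) and 0.128 with single arrays left out, -0.094 without short day replicates 2 and 3 and -0.146 after scaling to the neuronal markers. Dh44-R2 was at 0.025 with array weights, 0.032 as the mean of its probe sets, between -0.054 and 0.066 with single arrays left out and 0.085 without short day replicates 2 and 3. After scaling to the neuronal markers NPF was at -0.029, Nplp3 at -0.091 and sNPF-R at -0.005. The cause of these changes was not tested. Of the other comparisons of a described member with an alternative, 325 kept direction and side of the threshold, 30 lost the call and 11 gained it.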
